A study of Mus musculus with 8 samples.

Results

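Genes of the liver blood vessels were followed in single-cell RNA-seq data from the livers of 8 mice. The members were picked by symbol: 4 markers of the sinusoidal lining (Stab2, Clec4g, Lyve1 and Gpr182), 3 secreted ligands of Wnt signalling (Rspo3, Wnt2 and Wnt9b) and 3 genes of capillary or large-vessel endothelium (Vwf, Cd34 and Plvap), 10 of the 55450 genes in the deposited matrix. Each was read in endothelial cells, here defined as kept cells with at least 2 UMIs (counted RNA molecules) of Ptprb, Kdr and Egfl7 together and 0 UMIs of Csf1r, a receptor of the macrophage lineage. A cell was kept when more than 500 genes were detected and less than 25% of its UMIs were mitochondrial. This left 80474 of 88581 barcodes, of which 4441 were endothelial, and all 8 mice had 20 or more of them.

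All mice were labelled wild type; the study's methods give the strain as C57BL/6 and the sources used here give no age. The 2 control mice received normal chow and water. The 3 HFD+F+CCl4 mice received a high-fat diet and the 3 WD+F+CCl4 mice a western diet, both with fructose solution and CCl4, a hepatotoxin, injected into the peritoneum; these 6 are called NASH mice below. Each library is 1 mouse. Perfused liver was dissociated, red cells were lysed and dead cells were removed, and no sort for vessel cells is described.

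Liver sinusoids are lined by a thin, fenestrated endothelium that lacks an organised basement membrane and takes up waste macromolecules through scavenger receptors. During chronic injury this lining can lose its fenestrae and acquire features of ordinary capillaries, which is called capillarization. Endothelial cells around the central vein also secrete Wnt ligands and R-spondin, which sustain pericentral gene expression in neighbouring hepatocytes.

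The endothelial cells were unevenly spread and their purity differed between groups. Control replicates 1 and 2 gave 1249 and 864 endothelial cells, HFD+F+CCl4 replicates 1 to 3 gave 1001, 154 and 39, and WD+F+CCl4 replicates 1 to 3 gave 31, 29 and 1074. Their median UMI count was 1030 in control replicate 2 and between 2262 and 4763 in the others. In both controls, many gated cells also carried RNA of other cells: Cd3e, a subunit of the T cell receptor complex, was detected in 40.4% and 29.5% of them against 0% to 7.69% in NASH mice, and the 7 T and NK cell markers summed to 2922 and 2249 CPM (UMIs of a gene as a rate per 1e6 UMIs of the same cells) against 24.8 to 397. Ptprc, the pan-leukocyte surface phosphatase, was detected in 63.1% and 64.0% of the control cells and in 16.1% to 67.7% of the NASH cells. The 12 pan-endothelial markers, none of them used in the gate, summed to 1879 and 1205 CPM in controls and to 2104 to 6654 CPM in NASH mice, with all 12 detected in every mouse. In control replicate 2, 59.5% of gated cells had no UMI of Cdh5, Pecam1, Tie1 or Clec14a, and in control replicate 1 31.5%. The same share was 11.6%, 19.5% and 38.5% in HFD+F+CCl4 replicates 1 to 3. In WD+F+CCl4 replicates 1 to 3 it was 41.9%, 31.0% and 7.54%, so on this measure some NASH mice were no purer than control replicate 1. The 10 hepatocyte markers reached 3446 and 6135 CPM in controls and 49.6 to 2406 in NASH mice, and the 4 hemoglobin genes 5035 CPM in control replicate 2. Some NASH mice carried RNA of other lineages too. The 8 stellate cell markers summed to 744 CPM in HFD+F+CCl4 replicate 1 and 1484 CPM in WD+F+CCl4 replicate 2. They summed to 7.96 to 171 CPM in the other NASH mice and to 105 and 69.9 CPM in controls. The 12 macrophage markers reached 2223 CPM in HFD+F+CCl4 replicate 1 and 372 to 949 CPM in the other NASH mice. Controls had 358 and 1595 CPM of them. Because of these differences, the members are given below as CPM, relative to the pan-endothelial markers, and again in cells with 0 UMIs of Ptprc and Cd3e. No doublet caller was run. Of the kept barcode sequences 732 occurred in more than 1 library, and 1 of the endothelial ones did.

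The first question was whether the members mark endothelial cells in these livers. All 10 were higher in endothelial cells than in the other kept cells of the same mouse, with the mouse as a block (edgeR quasi-likelihood test, adjusted over 12672 genes), where 32.6% of all genes tested were called and 14.1% were higher. The log2 difference was smallest for Cd34, at 2.08 ± 0.45 (SE, 8 mice, edgeR adjusted p = 0.0049), and largest for Wnt9b, at 6.21 ± 0.95 (edgeR adjusted p = 0.00075). Stab2 differed by 4.14 ± 0.63 and Plvap by 4.97 ± 0.84 on the same log2 scale. Leaving out any mouse kept all 10 calls.

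Outside the endothelial gate the members separated. Rspo3, which encodes an R-spondin that amplifies Wnt signalling, had 264 CPM in stellate-gated cells, a class with 20 or more cells only in HFD+F+CCl4 replicate 1, where the endothelial value was 359 CPM. Plvap, which forms the diaphragm of endothelial fenestrae and caveolae, had 715 CPM in those 80 stellate-gated cells against 388 CPM in the endothelial cells of that mouse. Cd34, a sialomucin of capillary endothelium and of blood progenitors, had 25.8 to 76.9 CPM in dendritic-gated cells over the 8 mice, with a median of 50.3, and the control and NASH values overlapped there. In the 80 stellate-gated cells of HFD+F+CCl4 replicate 1 it had 82.8 CPM. Of all Cd34 UMIs in kept cells, 2.51% to 47.0% lay in endothelial cells. The share was 3.39% to 72.2% for Stab2, 11.8% to 68.7% for Clec4g and 13.3% to 76% for Lyve1. A low share in some mice was thus not particular to Cd34. The monocyte-macrophage-gated class, 40295 cells against 4441 endothelial ones, held 3093 Cd34 UMIs against 1140. It held 5083 Stab2 UMIs against 12606 and 6869 Clec4g UMIs against 16496. Stab2, a hyaluronan scavenger receptor, had 37.9 to 123 CPM in Kupffer-gated cells of the 4 mice with enough of them. The endothelial gate genes Ptprb, Kdr and Egfl7 had medians of 81.2, 52.9 and 39.1 CPM in the same class. Stab2 also reached 131 CPM in B-gated and 138 CPM in neutrophil-gated cells, so its value was not particular to the Kupffer class. The part of stray RNA or doublets in it was not tested. Wnt2 and Wnt9b, secreted Wnt ligands, had medians of 0 CPM in dendritic, B, neutrophil, hepatocyte and cholangiocyte classes. In control replicate 2, Stab2 was detected in 14.6% of T-NK cells and Clec4g in 10.3%, so in that library a UMI of either was also common in cells of another type.

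**Figure D1:**
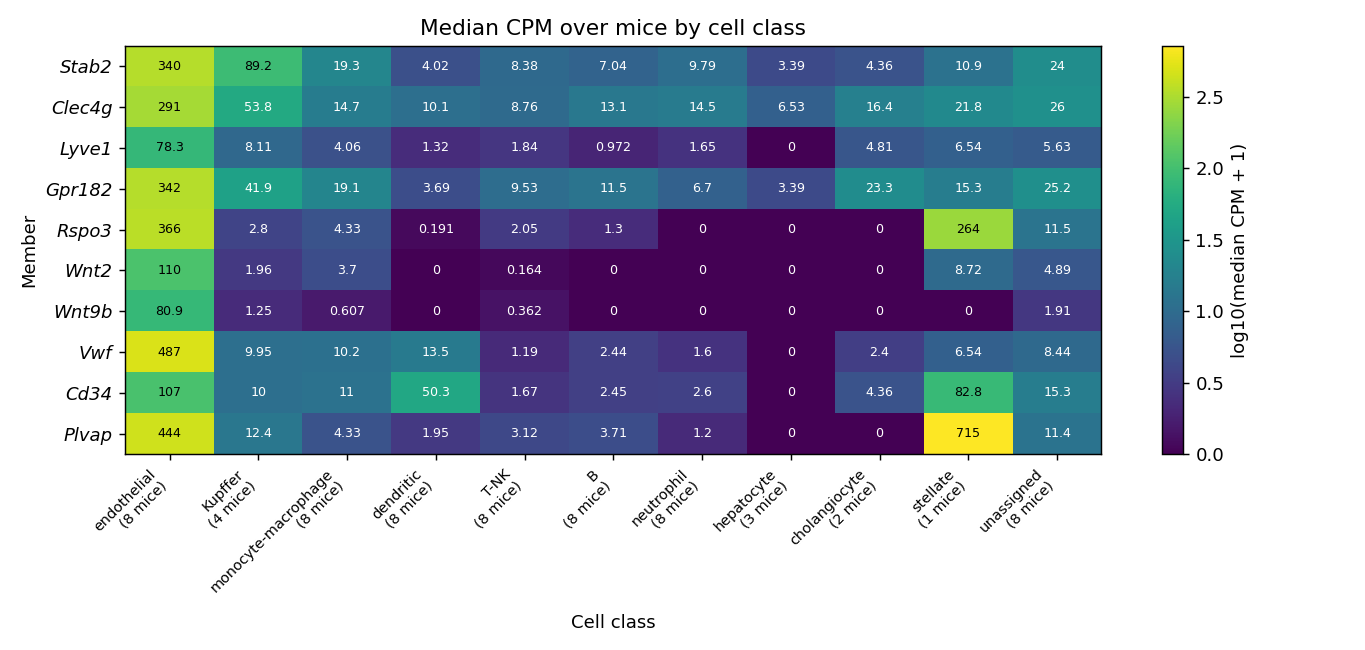
Median CPM over mice of each member (rows) in each cell class (columns), with the number of mice that had 20 or more cells of the class; the colour is log10 of the median plus 1. The endothelial column holds 78.3 to 487 CPM, and the stellate-gated column, from 1 mouse, is the only other with Rspo3 and Plvap above 200 CPM.

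The 4 sinusoidal markers varied more between mice than between groups. Stab2 had 420 and 336 CPM in the controls, 1015, 345 and 155 CPM in HFD+F+CCl4 replicates 1 to 3, and 49.7, 9.93 and 1379 CPM in WD+F+CCl4 replicates 1 to 3. The NASH values lay on both sides of the controls, and the lowest and the highest both came from WD+F+CCl4 mice. For Clec4g, a C-type lectin of the sinusoidal lining, the controls had 305 and 277 CPM, the HFD+F+CCl4 mice 1361, 546 and 187 CPM, and the WD+F+CCl4 mice 149, 39.7 and 2036 CPM. The order of the mice was the same as for Stab2 among the NASH livers.

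Gpr182, an atypical chemokine receptor, had 374 and 174 CPM in controls, 1357, 752 and 310 CPM in HFD+F+CCl4 mice and 205, 238 and 1846 CPM in WD+F+CCl4 mice. Lyve1, a hyaluronan receptor shared by sinusoidal and lymphatic endothelium, had 70.4 and 68.3 CPM in controls, 451, 86.2 and 151 CPM in HFD+F+CCl4 mice and 31.0, 9.93 and 659 CPM in WD+F+CCl4 mice. For both genes the highest values again came from HFD+F+CCl4 replicate 1 and WD+F+CCl4 replicate 3, the only NASH mice with more than 1000 endothelial cells. In HFD+F+CCl4 replicate 3 the lymphatic genes Mmrn1 and Ccl21a reached 446 and 298 CPM, against at most 5.36 CPM elsewhere, and in that mouse Lyve1 was higher in endothelial cells without a UMI of Fcgr2b, Oit3 or Dnase1l3 (291 CPM, 36 UMIs) than in those with 2 or more (20.8 CPM, 2 UMIs). The part of lymphatic endothelium in that Lyve1 value was not tested.

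None of the 4 passed the test between NASH and control mice. The log2 difference was 0.29 ± 1.27 for Stab2, 1.21 ± 1.22 for Clec4g, 1.69 ± 1.22 for Lyve1 and 1.40 ± 0.92 for Gpr182 (SE, 8 mice, edgeR adjusted p = 0.46 to 0.94). Without WD+F+CCl4 replicate 3 these became -1.71 for Stab2, -0.25 for Clec4g and -0.08 for Lyve1. The difference of Stab2 also turned, to -0.25, without HFD+F+CCl4 replicate 1. Among the 5 mice with 50 or more endothelial cells, the differences of Clec4g, Lyve1 and Gpr182 were called, at 2.24, 2.60 and 2.30, where 16.8% of all genes tested were called and 8.69% were higher.

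**Figure D2:**
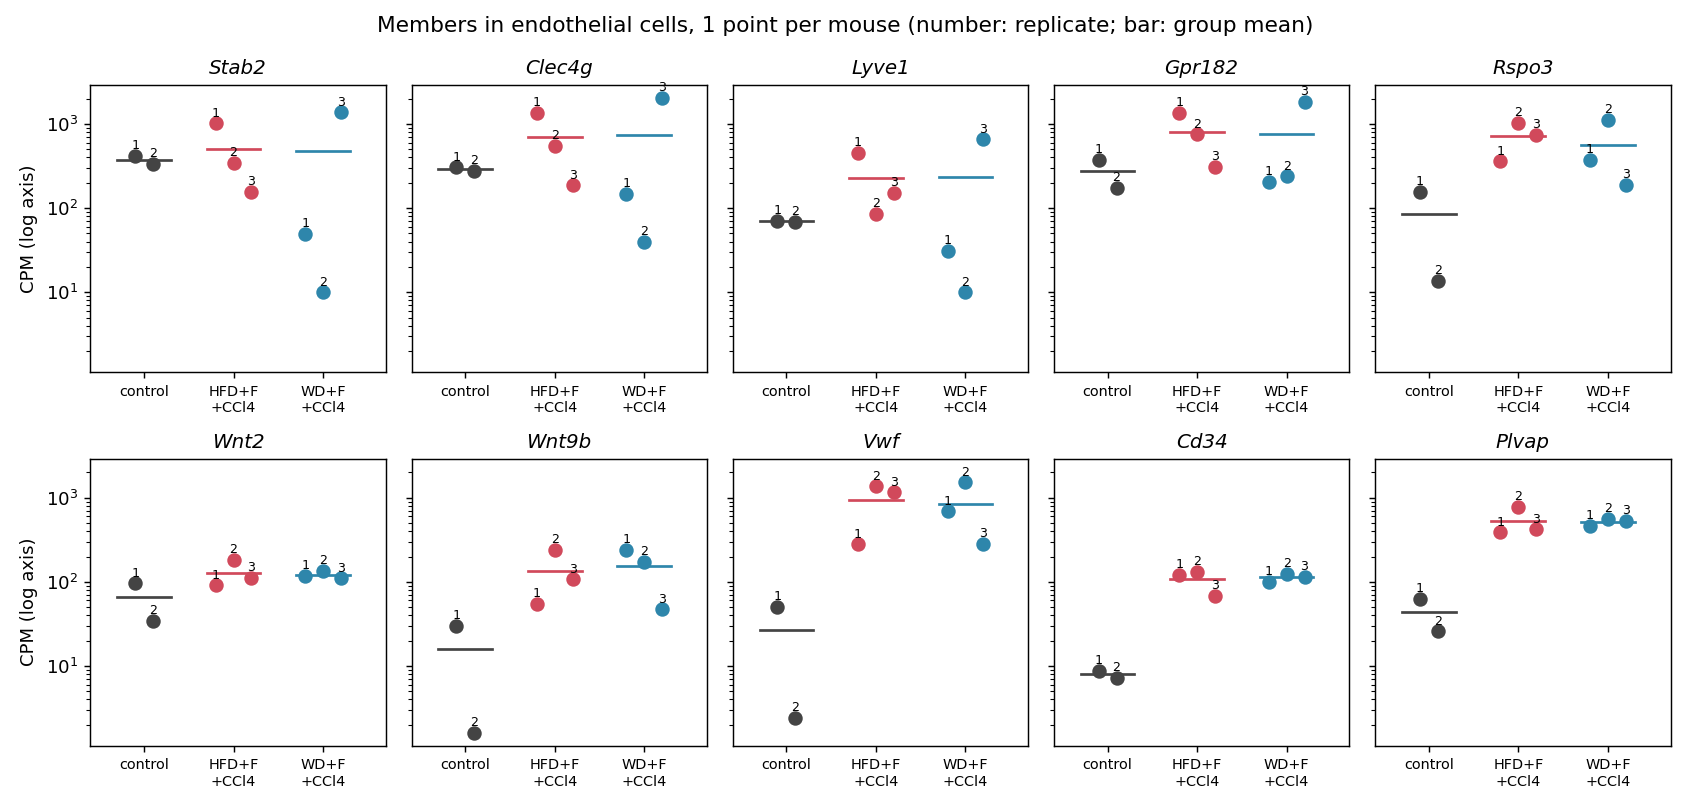
CPM of each member in endothelial cells on a log axis, 1 point per mouse with its replicate number, coloured by group; bars are arithmetic group means. Cd34 lies between 67.6 and 132 CPM in the 6 NASH mice and at 8.68 and 7.24 CPM in the controls, while the sinusoidal markers in WD+F+CCl4 mice spread from 9.93 to 2036 CPM.

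Rspo3 and the Wnt ligands Wnt9b and Wnt2 did not follow the order of mice seen for Stab2. Rspo3 had 155 and 13.7 CPM in controls, 359, 1041 and 744 CPM in HFD+F+CCl4 mice and 372, 1122 and 189 CPM in WD+F+CCl4 mice. All NASH values exceeded both controls, and the lowest NASH values came from the mice in which Stab2 was highest. Wnt9b had 30.1 and 1.61 CPM in controls (135 and 2 UMIs), 54.5, 238 and 107 CPM in HFD+F+CCl4 mice and 242, 174 and 47.0 CPM in WD+F+CCl4 mice. Wnt2 moved least, with 96.4 and 34.6 CPM in controls, 91.1, 184 and 111 CPM in HFD+F+CCl4 mice and 118, 134 and 110 CPM in WD+F+CCl4 mice, so that the groups overlapped.

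The log2 difference between NASH and control mice was 2.76 ± 1.04 for Rspo3 (adjusted p = 0.18), 2.90 ± 1.04 for Wnt9b (adjusted p = 0.16) and 0.79 ± 0.44 for Wnt2 (adjusted p = 0.38), all SE over 8 mice from edgeR, and none was called. DESeq2 on the same sums called Rspo3, Wnt9b, Vwf, Cd34 and Plvap, 5 of the 10, with 8.06% of all genes called and 3.82% higher. In the annotation Rspo3 overlaps Gm20276 on the same strand, so reads of this pair could be split by the counting.

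Wnt9b was detected more often in endothelial cells with an Rspo3 UMI than in those without. Wnt2 is not given here. Of the cells with an Rspo3 UMI, 34.7% also had a Wnt9b UMI in control replicate 1 (43 of 124 cells, 95% exact interval 26.4% to 43.7%), against 3.02% of the endothelial cells without Rspo3. Control replicate 2 had only 14 cells with Rspo3, 1 of them with Wnt9b. The share was 35.6% in HFD+F+CCl4 replicate 1, 56.9% in HFD+F+CCl4 replicate 2 and 44.3% in WD+F+CCl4 replicate 3, against 2.11%, 4.85% and 2.71% of the rest. Vwf, the platelet-binding glycoprotein of large vessels, was in 28.2% of Rspo3 cells in control replicate 1 and in 56.2%, 68.6% and 57.4% of them in the same 3 NASH mice. Over all endothelial cells, those with Rspo3 included, Vwf was detected in 3.60% in control replicate 1 and in 18.8%, 37.7% and 19.0% in those NASH mice. These shares count UMIs and move with depth; the intervals here cover counting error only.

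The capillary and large-vessel genes showed the clearest separation. Cd34 had 8.68 and 7.24 CPM in controls, 121, 132 and 67.6 CPM in HFD+F+CCl4 mice and 99.3, 124 and 115 CPM in WD+F+CCl4 mice. Every NASH value was above both controls, and relative to its mean the spread over the 6 was the smallest of the 10 members (110 ± 23.3 CPM, SD). Several of these values rest on few UMIs. Cd34 had 39 and 9 UMIs in controls, 399, 78 and 17 in HFD+F+CCl4 mice and 16, 25 and 557 in WD+F+CCl4 mice. For Plvap the controls had 62.3 and 25.7 CPM, the HFD+F+CCl4 mice 388, 780 and 422 CPM and the WD+F+CCl4 mice 466, 566 and 527 CPM. Vwf had 50.5 and 2.41 CPM (227 and 3 UMIs) in controls, 278, 1363 and 1154 CPM in HFD+F+CCl4 mice and 689, 1529 and 285 CPM in WD+F+CCl4 mice. For Rspo3, Wnt9b, Vwf, Cd34 and Plvap, 5 of the 10, all 6 NASH mice lay above both controls, as did 8% of all genes tested, and for no member did all 6 lie below, as 10.7% of genes did.

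Cd34 and Plvap were the 2 members called between NASH and control mice. The members were chosen with earlier results of these data known. Cd34, at 8.68 and 7.24 CPM in controls, passed the filter on low counts through its NASH values. Its call is therefore a description of these mice and no independent test. Cd34 rose by 3.66 ± 0.38 on the log2 scale (12.7-fold, SE, 8 mice, edgeR adjusted p = 0.0015) and Plvap by 3.44 ± 0.52 (10.9-fold, edgeR adjusted p = 0.0065). Leaving out a control leaves 1 control mouse, so that the spread then comes only from the NASH mice and the lone control is assumed to vary like them. Without control replicate 2 Plvap differed by 2.90 and was not called in that fit (edgeR adjusted p = 0.10), and Cd34 differed by 3.49. Vwf differed by 4.87 ± 1.29 with an adjusted p of 0.064 in the same fit, and without WD+F+CCl4 replicate 3 it was called (5.07). Over all 11139 genes tested, 5.2% were called in that comparison and 1.32% were called as higher, and the median difference of all genes was -0.01. The median over the 10 members was 2.22.

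Both genes passed in each model against the shared controls, with the same limit for Cd34. The log2 rise of Cd34 was 3.57 ± 0.39 in HFD+F+CCl4 mice (adjusted p = 0.0054) and 3.75 ± 0.40 in WD+F+CCl4 mice (adjusted p = 0.0072), and that of Plvap 3.39 ± 0.54 (adjusted p = 0.017) and 3.49 ± 0.55 (adjusted p = 0.016), from the same edgeR fit. With 1 control left out neither gene was called in either model, and the differences were 3.39 to 3.97 for Cd34 and 2.84 to 4.35 for Plvap. The share of all genes called was 3.07% in the first model and 2.18% in the second. Between the models no member and no gene was called (0 of 11139 by edgeR and by DESeq2, 178 and 168 at an unadjusted p under 0.05). There the members' log2 differences, WD+F+CCl4 minus HFD+F+CCl4, ran from -0.23 to 0.30 and the SEs of the members other than Cd34 from 0.42 to 1.2, so that for several members large differences in either direction lie within the error.

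Cells with the gene were counted next. At least 1 Cd34 UMI was found in 1.84% (23 of 1249 cells, 95% exact interval 1.17% to 2.75%) and 0.926% (8 of 864) of the control endothelial cells, and in 20.5% to 34.5% of those of the 6 NASH mice. In T-NK cells, whose median depth was 1104 to 2812 UMIs, the share was 0.219% to 0.917% over the 8 mice and 0.840% in control replicate 2, so the value of that control is near the level seen in another cell type. With each cell thinned to 1000 UMIs, which left out 728 shallower cells, the shares were 0.841% and 1.27% in controls and 7.89% to 17.2% in NASH mice.

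Because the control cells carried RNA of other lineages, the members were also expressed per 1000 UMIs of the 12 pan-endothelial markers in the same cells. On that scale Stab2 had 223 and 279 in controls and 156, 60.8, 44.4, 23.6, 2.95 and 207 in the NASH mice, HFD+F+CCl4 replicates first. All 6 lay below both controls, which was also true of 47.3% of all genes tested. Cd34 had 4.62 and 6.00 in controls and 17.2 to 47.2 in NASH mice, Plvap 33.2 and 21.4 against 59.5 to 221, and Vwf 26.9 and 2.00 against 42.6 to 454. These 3 were the members with all 6 NASH mice above both controls, a pattern found in 0.745% of all genes. The exact two-sided permutation p over the 28 splits of the mice, unadjusted for the 10 genes tested, was 0.036 for Stab2, 0.071 for Cd34 and for Plvap and 0.11 for Vwf, and 0.036 is the smallest that this design can give. The other 6 members overlapped the controls, with p from 0.25 to 0.89.

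The same scaling in the edgeR fit shifted the median of all genes by -1.47 on the log2 scale and called 47.1% of the genes, with 0.584% higher. Cd34 (2.30), Plvap (2.22) and Vwf (3.97) were among the latter (edgeR adjusted p = 0.013 to 0.024). Relative to the markers, Stab2, Clec4g, Lyve1, Gpr182 and Wnt2 were lower, by -1.57, -0.64, -0.15, -0.23 and -0.41, and none was called.

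**Figure D3:**
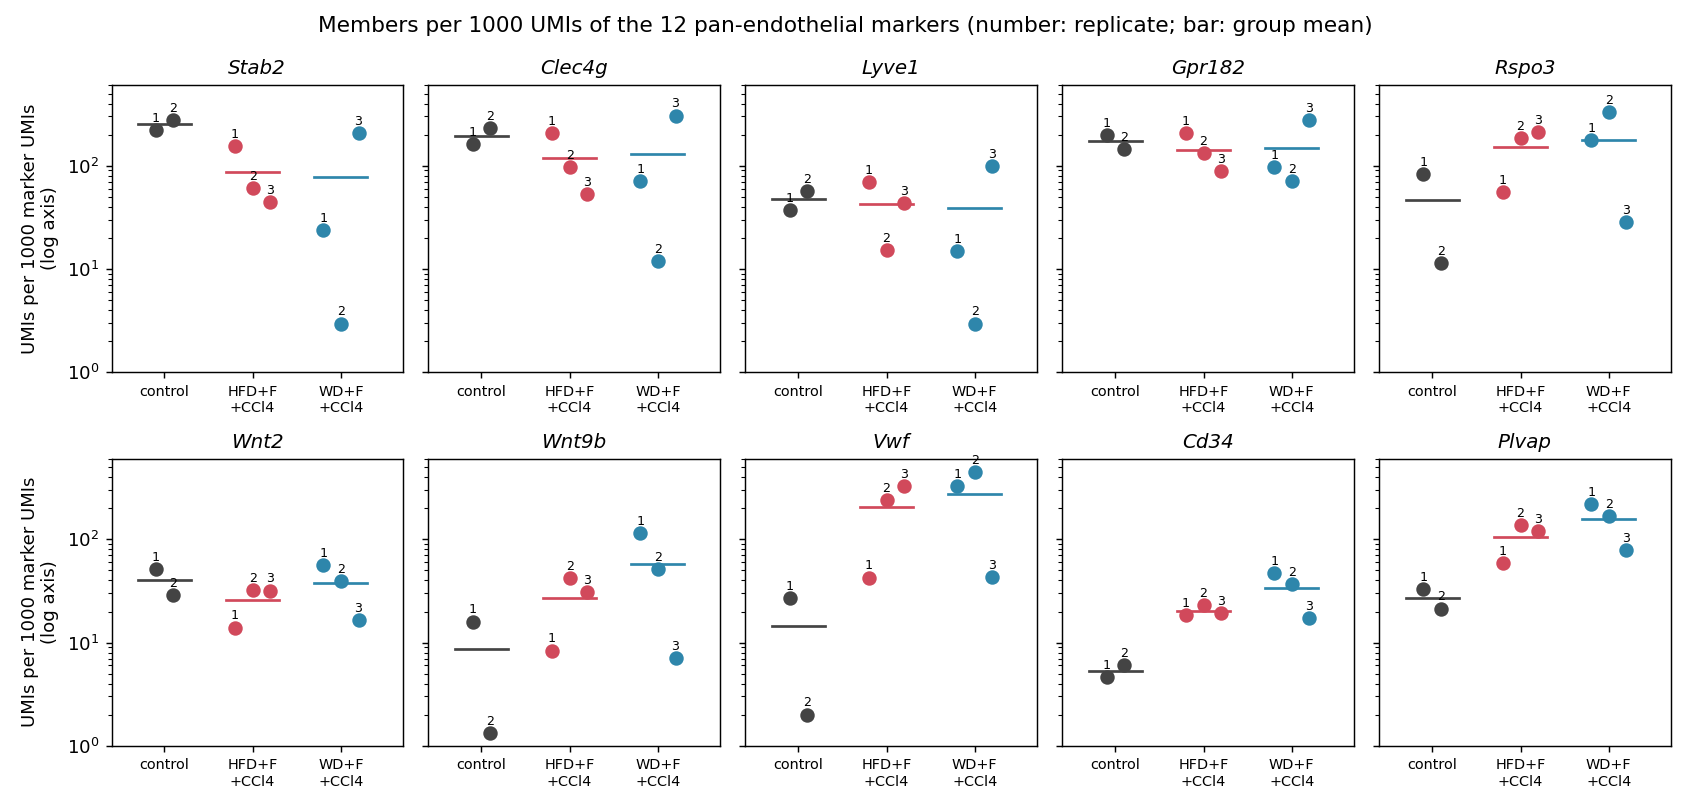
UMIs of each member per 1000 UMIs of the 12 pan-endothelial markers in endothelial cells, log axis, 1 point per mouse with its replicate number; bars are arithmetic group means. Stab2 lies below both controls in the 6 NASH mice, and Vwf, Cd34 and Plvap lie above both.

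When only endothelial cells with 0 UMIs of Ptprc and Cd3e were used, 421 and 242 cells remained in controls and 6 mice kept 20 or more. In control replicate 1 Stab2 then had 1453 CPM and Clec4g 1229 CPM, and control replicate 2 had 396 and 384 CPM. In the NASH mice Stab2 had 1111, 372, 282 and 1476 CPM and Clec4g 1502, 634, 334 and 2160 CPM in HFD+F+CCl4 replicates 1 to 3 and WD+F+CCl4 replicate 3. The controls lay within the range of the NASH mice for both genes. Cd34 had 9.81 CPM in control replicate 1 and 0 UMIs in control replicate 2, against 132, 196, 111 and 125 CPM in the 4 NASH mice. It was the member still called (log2 difference 4.37, adjusted p = 0.015, edgeR, 6 mice, with 2.28% of all genes called and 0.205% higher), while Plvap differed by 2.40 (adjusted p = 0.20) and Vwf by 3.09 (adjusted p = 0.26). With endothelial cells chosen by Cdh5, Tie1 and Clec14a in place of the gate genes, no member was called, against 1.95% of all genes (0.0491% higher). The log2 differences there were 3.76 ± 0.94 for Cd34, 2.82 ± 0.73 for Plvap and 3.82 ± 1.33 for Vwf (SE, edgeR adjusted p = 0.12, 0.13 and 0.31). Cd34 then had 6.85 and 6.82 CPM in controls and 62.2 to 145 CPM in 5 NASH mice but 8.04 CPM in WD+F+CCl4 replicate 1, where only 6 cells met both gates.

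A narrower view took the endothelial cells with at least 2 UMIs of Fcgr2b, Oit3 and Dnase1l3, other genes of the sinusoidal lining. Both controls, HFD+F+CCl4 replicates 1 and 2 and WD+F+CCl4 replicate 3 had 20 or more, with 798, 337, 768, 77 and 935 cells in that order. Cd34 in these cells had 7.38 and 5.41 CPM in controls and 121, 136 and 117 CPM in the NASH mice. For Plvap the values were 79.4 and 32.4 CPM against 372, 765 and 530 CPM, and for Vwf 17.2 and 1.80 CPM against 193, 1087 and 221 CPM. Each of the 3 NASH mice exceeded both controls for all 3 genes. The share of all genes with that pattern in these 5 mice was not counted, so the pattern is only a description.

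In the fit of these 5 mice 19.6% of 13506 genes were called and 9.03% were higher, among them 6 members. Cd34 rose by 4.09 ± 0.35 (adjusted p = 2.1e-05), Plvap by 3.14 ± 0.47, Vwf by 4.81 ± 0.79, Lyve1 by 2.47 ± 0.48, Gpr182 by 2.07 ± 0.47 and Clec4g by 2.03 ± 0.42 (log2, SE, edgeR, adjusted p at most 0.0095). All 12 pan-endothelial markers were higher in that fit too, with a median of 1.73, and Cd3e had 379 and 267 CPM in these control cells against 3.43 to 39.3 CPM. Scaled to those markers, Cd34, Plvap and Vwf stayed called (2.51, 1.55 and 3.39), Clec4g, Lyve1 and Gpr182 did not (0.22, 0.70 and 0.40), and Wnt2 was lower, at -1.30 (edgeR adjusted p = 0.016), where 65.6% of all genes were called and 0.763% were higher. Without cells carrying Ptprc or Cd3e, Cd34 (4.29) and Vwf (5.24) stayed called and Plvap did not (2.07, edgeR adjusted p = 0.21), with 2.22% of all genes called and 0.424% higher.

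**Figure D4:**
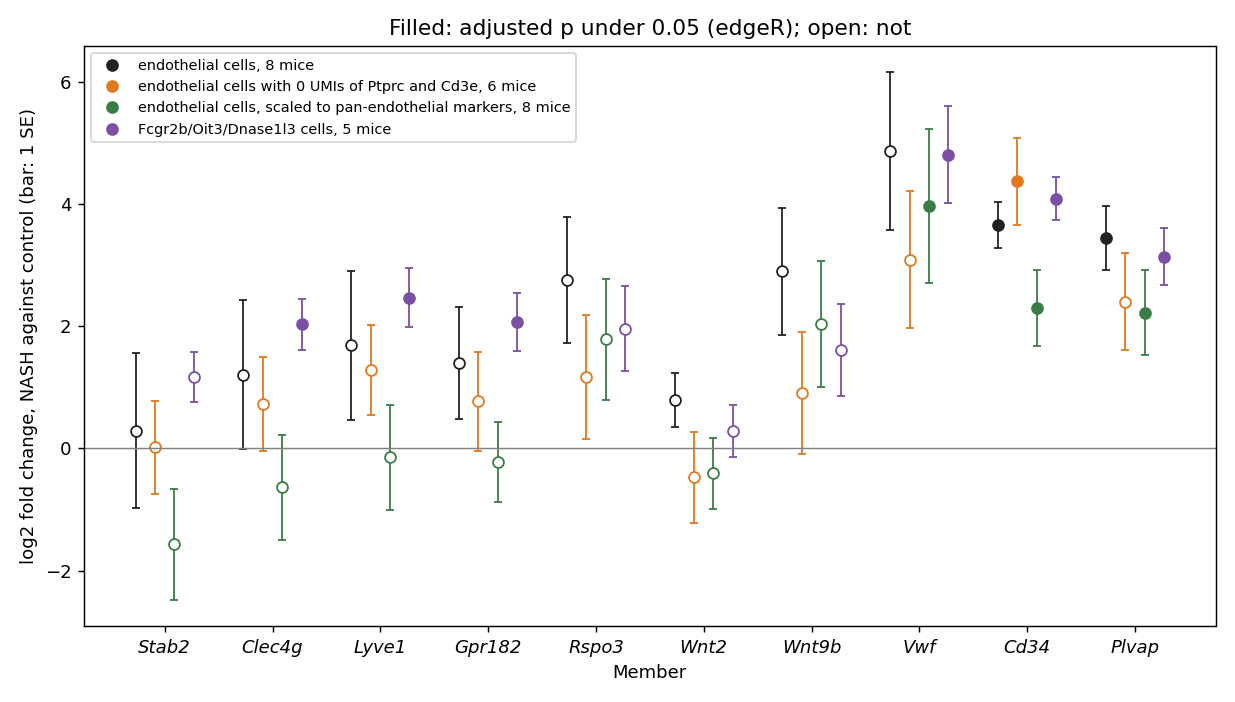
Log2 difference between NASH and control mice of each member, with bars of 1 SE, in 4 fits: all endothelial cells, those with 0 UMIs of Ptprc and Cd3e, all scaled to the pan-endothelial markers, and the Fcgr2b, Oit3 and Dnase1l3 cells. Filled points passed an adjusted p of 0.05; Cd34 is filled in all 4, and Stab2, Rspo3, Wnt2 and Wnt9b in none.

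Some cells with a Stab2 UMI in the NASH livers also carried a UMI of a capillary or large-vessel gene. Of the cells with a Stab2 UMI, Cd34 was detected in 1.16% (8 of 689, interval 0.503% to 2.27%) and 1.12% (3 of 269) in controls, and in 27.9% (185 of 664, interval 24.5% to 31.4%), 22.6% (12 of 53) and 33.5% (289 of 863, interval 30.3% to 36.7%) in HFD+F+CCl4 replicates 1 and 2 and WD+F+CCl4 replicate 3. Plvap was detected in 17.9% and 5.20% of the Stab2 cells in controls and in 46.5%, 50.9% and 67.8% in those NASH mice. Over all endothelial cells, those with Stab2 included, Plvap was detected in 14.3% and 3.59% in controls and in 45.1%, 53.2% and 62.9% in those NASH mice. For Vwf the shares of the Stab2 cells were 0.871% and 0.372% in controls against 12.3%, 15.1% and 15.6%. Among the NASH cells without a Stab2 UMI, Cd34 was detected in 19.0%, 25.7% and 26.1%. This is below the interval of the Stab2 cells in the first and the third mouse and within it in the second. Over all endothelial cells of the controls, Cd34 was detected in 1.84% and 0.926%, above the share of the Stab2 cells in the first and below it in the second. Vwf was detected in 31.5%, 49.5% and 32.7% of the NASH cells without Stab2, above the interval of the Stab2 cells in all 3. The shares without Stab2 have counting error of their own, which is not given here. The other 3 NASH mice had 2 to 7 cells with Stab2. Deeper cells show more genes, and depth differed between mice as given above. Stab2 was also detected in 2.59%, 1.73% and 4.52% of T-NK cells in HFD+F+CCl4 replicates 1 and 2 and WD+F+CCl4 replicate 3. The part of stray RNA or doublets in these shares was not tested.

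**Figure D5:**
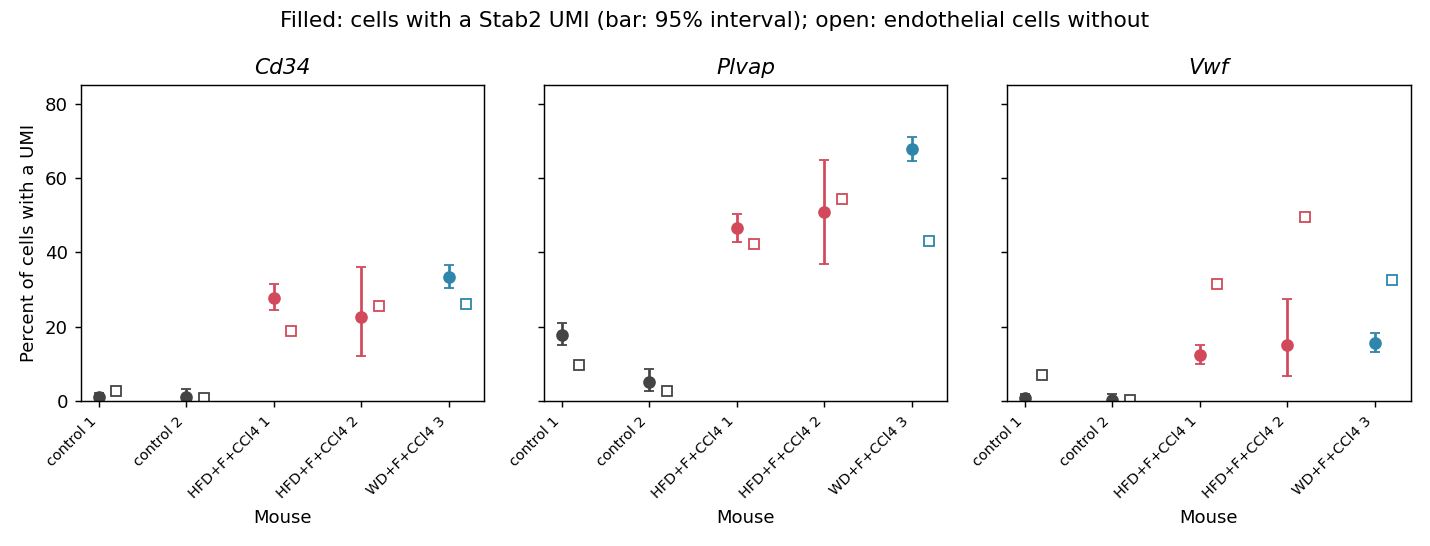
Percent of cells with a UMI of Cd34, Plvap or Vwf, among endothelial cells with a Stab2 UMI (filled, with 95% exact binomial interval) and without (open), in the 5 mice with 20 or more Stab2 cells. Cd34 is at 1.12% to 1.16% of Stab2 cells in controls and at 22.6% to 33.5% in NASH mice.

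Endothelial cells without any UMI of Fcgr2b, Oit3 and Dnase1l3 were compared with the gated ones. In HFD+F+CCl4 replicate 1 they had 680 CPM of Rspo3 and 550 CPM of Vwf, against 261 and 193 CPM in the sinusoidal-gated cells. In WD+F+CCl4 replicate 3 the same values were 486 and 804 CPM against 155 and 221 CPM. In HFD+F+CCl4 replicate 2 they were 924 and 2025 CPM against 1155 and 1087 CPM, so that Rspo3 went the other way. Control replicate 1 had 292 CPM of Rspo3 and 152 CPM of Vwf against 128 and 17.2 CPM. Control replicate 2 had 11.5 and 2.87 CPM against 19.8 and 1.80 CPM, from 1 to 11 UMIs each. Vwf was thus higher in the cells without these genes in 4 mice, and Rspo3 in 3 of them, with Vwf in control replicate 2 at 1 UMI in each set of cells. Stab2 had 100, 13.3 and 50.1 CPM against 1246, 672 and 1544 CPM in the NASH mice, and 86.8 and 213 CPM against 590 and 476 CPM in the controls, with the smallest gap in control replicate 2.

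The share of endothelial cells among kept cells was 11.6% and 20.7% in controls, 8.95%, 1.52% and 0.366% in HFD+F+CCl4 mice and 0.258%, 0.295% and 9.17% in WD+F+CCl4 mice. The mean of the NASH mice was lower by -12.7 percentage points (exact two-sided permutation test, p = 0.036, the smallest of 28 splits). With the gate of Cdh5, Tie1 and Clec14a the difference was -0.80 points (exact p = 0.75), so the call depended on the gate.

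Related genes were read from lists in the same fit of NASH against control mice. The lists were chosen with earlier results of these data known. Some of their genes, such as Ackr1 and Edn1, passed the filter on low counts only with their NASH values. The list shares and medians are therefore a description and no test of the lists. Of 18 large-vessel and adhesion genes, 17 were tested and 6 rose, with a list median of 2.97 on the log2 scale, where 1.32% of all genes tested rose and their median was -0.01. Ackr1, an atypical chemokine receptor of venules, rose by 4.99 from a control mean of 2.65 CPM to a NASH mean of 92.6 CPM, and Edn1, the precursor of the vasoconstrictor endothelin, by 5.15 from 10.0 to 423 CPM. In control replicate 2 both had 2.41 CPM, the level of 3 UMIs in that library, so these 2 differences rest on few control UMIs. Vcam1, a leukocyte adhesion molecule, rose by 3.22 and Thbd, the anticoagulant thrombomodulin, by 2.97. Of 18 basement membrane and capillary genes 14 were tested and 2 rose, Ednrb, an endothelin receptor, by 4.44 and the transcription factor Sox4 by 2.43, with a list median of 1.55. In cells without Ptprc and Cd3e, where 0.205% of all genes were higher, Vcam1 (2.87) and Ackr1 (4.39) stayed called. Edn1 (3.76), Thbd (1.76), Ednrb (3.01) and Sox4 (2.13) were not called there, at an edgeR adjusted p of 0.084 to 0.46, and the list medians were 1.35 for the large-vessel and 1.47 for the basement membrane genes.

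Of 18 other sinusoidal genes all were tested and none was called, with a list median of 0.68; Stab1 differed by 0.67 and Dnase1l3 by -0.14. The 10 sinusoid zonation genes had a median of 1.28 with none called. Of 22 further genes of the Wnt and R-spondin pathway 11 were tested and 1, the Wnt receptor Fzd6, rose, by 1.95. The 12 pan-endothelial markers had a median of 1.51 with none called, Eng being highest at 385 CPM in controls and 1330 CPM in NASH mice on average.

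The lists of other cell types moved as well. All 4 B cell markers and 5 of 7 T and NK cell markers fell, with medians of -4.87 and -3.91, and 3 of 10 hepatocyte markers fell, with a median of -2.46. Of 12 macrophage markers 10 were tested and 2 rose, C1qa by 3.67 and C1qb by 4.00, with a median of 2.49. No call was made among 5 of 6 neutrophil, 4 hemoglobin, 2 of 4 cholangiocyte, 5 of 8 stellate and 3 of 6 lymphatic markers tested (medians of -1.63, -2.88, 0.80, 3.27 and 0.23). The part of these cell types in the members' differences was not tested beyond the cell choices given above.

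Over 66 sums of 11 cell classes and mice, the genes most like each member were found by Pearson correlation of log2(CPM + 1). Some, such as Eng, were among the endothelial markers above, but the genes were not otherwise classed by cell type. Stab2 and Gpr182 were each nearest to Gpihbp1 and Robo4 (r = 0.92 to 0.94), and Clec4g to Flt4 and Gpihbp1 (r = 0.96 for both). Lyve1 was nearest to Twist1 and Oit3, Wnt2 to Tek and Nos3, and Plvap to Ednrb and Eng, with r of 0.90 to 0.92. Rspo3 was nearest to Cyp1b1 and Sema3d, Wnt9b to AU021092 and Plppr5, Vwf to Fndc1 and Nts, and Cd34, the least tightly matched member, to Adgra2 (0.82) and Rtn1 (0.78). The sums share libraries and depth, and 15628 genes were searched.

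On GRCm38 (GENCODE M21) Stab2 lies at chr10:86841198-87008025, Clec4g at chr8:3707064-3720651, Wnt2 at chr6:17988940-18030585 and Cd34 at chr1:194938819-194961279, the first 3 on the minus and Cd34 on the plus strand, all as protein-coding genes. The 100 bases upstream of the outermost start of these genes are shown. They set a sinusoidal pair that varied together, Stab2 and Clec4g, beside the ligand Wnt2 and the capillary gene Cd34. Like Plvap and Vwf, Cd34 was above both controls in all 6 NASH mice in cells of the main gate. The sequences were taken from the RefSeq promoter table (GRCm38.p6), which matched 5 of the 10 members, and are written 5′ to 3′ on the strand of the gene. Capitals mark GGAAG or its reverse complement CTTCC, a narrow form of the GGAA core of sites for ETS factors, which include regulators of endothelial genes. GGAA followed by another base is not marked, and each of the sequences shown holds it.
Stab2 (chr10:87008026-87008125): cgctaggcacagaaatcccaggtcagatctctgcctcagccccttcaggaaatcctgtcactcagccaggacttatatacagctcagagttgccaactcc
Clec4g (chr8:3720652-3720751): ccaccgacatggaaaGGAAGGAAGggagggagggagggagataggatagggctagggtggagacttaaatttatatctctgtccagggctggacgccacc
Wnt2 (chr6:18030586-18030685): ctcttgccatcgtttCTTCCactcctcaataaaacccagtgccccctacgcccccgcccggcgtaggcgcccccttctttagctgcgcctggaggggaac
Cd34 (chr1:194938719-194938818): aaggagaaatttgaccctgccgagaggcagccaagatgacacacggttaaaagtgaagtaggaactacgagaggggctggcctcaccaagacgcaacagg
The marked form was found 2 times in Clec4g, in copies that share a base, and 1 time in Wnt2, and 35.7% of 32851 promoters hold it in this window. GATAA or TTATC, a narrow form of GATA sites, was found in none of the 5, against 8.55% of promoters. Other forms were not searched, and the Clec4g sequence holds GATAG.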

How the data were processed

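Dissociated livers of 8 mice were profiled with 10x Genomics 3′ chemistry. The deposited values are raw UMI counts per gene and barcode, made by the authors with bcl2fastq 2.20 and Cell Ranger (4.0.0 in the file header, another version in the methods) on GRCm38, with all libraries in 1 matrix; the barcode suffix gave the mouse. No ambient RNA was removed here, and the sources do not say whether doublets were removed before deposit. Library totals were 6135827 to 64855024 UMIs.

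The gates were applied to raw UMIs, and counts were summed per mouse. Members were tested with edgeR 4.0.16 in R 4.3.3 (TMM, filterByExpr with a minimum of 10, quasi-likelihood test, 1 fit of the 3 groups, Benjamini-Hochberg over all genes, called under 0.05); SEs were derived from the F statistic. NASH against control is the mean of both models against control. DESeq2 1.42.0, other gates, filters and scalings and each mouse left out were alternatives. The script was tested on simulated data. All 10 members passed the filter in that fit. The filter asks for enough counts in as many mice as the smallest group has, whichever group they belong to. Cd34 (8.68 and 7.24 CPM in controls) and Ackr1 (2.89 and 2.41 CPM) thus passed through their NASH values. Vwf, Wnt9b, Edn1 and Ednrb, among others, also needed NASH mice to pass. In the lower control they had 2.41, 1.61, 2.41 and 4.02 CPM in that order. Such genes also enter the list medians. CPM divides by all UMIs of the class. Counts come from transcript 3′ ends, and levels were not ranked between genes. Shares and scaled levels used exact permutation tests, and binomial intervals are exact Clopper-Pearson. A gate marks cells by a few UMIs and can admit doublets or cells with free RNA, and a share of cells in the tissue cannot be told apart from a yield in dissociation.

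The members and lists were chosen with earlier results of these data known. Named genes were the members, up to 4 genes of each list with the lowest adjusted p under 0.05 (otherwise the highest mean CPM), and the 2 genes most like each member; Mmrn1 and Ccl21a were singled out after their values were seen. The scaling to pan-endothelial markers, the cells without Ptprc and Cd3e and the mice with 50 or more cells were chosen after seeing the data.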

Additional observations from a re-analysis of the deposited data

How the results depend on the processing

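Cd34 was called between NASH and control mice in 20 of 21 alternatives (log2 2.30 to 4.37, adjusted p up to 0.12, lost with the gate of Cdh5, Tie1 and Clec14a), Plvap in 16 and Vwf in 6. Without a mouse, 96 to 908 genes and 1 to 3 members were called in NASH against control (main 579 and 2), 7 to 779 and 0 to 3 in HFD+F+CCl4 against control (main 342 and 2), 3 to 408 and 0 to 2 in WD+F+CCl4 against control (main 243 and 2), and 0 to 1 genes between models. The lowest count for NASH came without control replicate 2 and the highest without WD+F+CCl4 replicate 1. In the same order of comparisons, genes called were 898, 668 and 525 with DESeq2, 1645, 1061 and 870 without the filter on low counts (8 between models), 998, 707 and 554 with 3 or more gate UMIs, 159, 49 and 71 with the gate of Cdh5, Tie1 and Clec14a, 93, 59 and 62 in cells with 0 UMIs of 6 genes of other lineages, 233, 128 and 15 in cells with 0 UMIs of Ptprc and Cd3e, 2460, 1623 and 1542 in mice with 50 or more cells and 5244, 4537 and 1269 scaled to the pan-endothelial markers. Fitting only the 2 groups gave 962 of 11200 for HFD+F+CCl4, and thinning gave 475 of 8011 for WD+F+CCl4. Genes tested were 11139 in the main fit, with DESeq2 and scaled to the markers, and 24420 without the filter. They were 9616 with 3 or more gate UMIs and 8149 with the gate of Cdh5, Tie1 and Clec14a. Without other-lineage UMIs 5909 were tested, without Ptprc and Cd3e 10230, and in mice with 50 or more cells 14634. Members called were 5, 4 and 4 with DESeq2, 5, 5 and 5 without the filter, 0, 0 and 0 with the gate of Cdh5, Tie1 and Clec14a, 1, 1 and 1 without other-lineage UMIs, 1, 1 and 0 without Ptprc and Cd3e, and 6 (NASH) and 5 (WD+F+CCl4) in mice with 50 or more cells. In the Fcgr2b, Oit3 and Dnase1l3 cells 6 members were called, 2 without Ptprc and Cd3e, and 6 to 9 without a mouse, where 1434 of 12589 to 2615 of 12325 genes were called (main 2642 of 13506). Without a control the lone control is assumed to vary like the other mice. The causes were not tested.

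With the replicate number as a block, 51, 0 and 0 genes were called and 1, 0 and 0 members; the member was Cd34. Deviations from the group mean had r of -0.44 to 0.05 over genes between same-numbered mice. Centring on so few mice per group constrains these values, so they cannot tell whether the numbers mark a pairing or batch. The block could not be fitted in the Fcgr2b, Oit3 and Dnase1l3 cells.

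Log2 differences that changed sign were Stab2 (-1.33 with the block, -0.25 without HFD+F+CCl4 replicate 1, -1.71 without WD+F+CCl4 replicate 3, -0.45 with the gate of Cdh5, Tie1 and Clec14a, -1.57 scaled to the markers), Clec4g (-0.015 with the block, -0.25 without WD+F+CCl4 replicate 3, -0.64 scaled), Lyve1 (-0.084 without WD+F+CCl4 replicate 3, -0.15 scaled), Gpr182 (-0.23 scaled) and Wnt2 (-0.090 with that gate, -0.42 without other-lineage UMIs, -0.47 without Ptprc and Cd3e, -0.41 scaled). Over the mice left out 1 at a time Stab2 ran from -1.71 to 0.62, Clec4g from -0.25 to 1.52 and Lyve1 from -0.084 to 2.00. In the Fcgr2b, Oit3 and Dnase1l3 cells Stab2 was -0.63 scaled, and Wnt2 -0.19 with 3 gate UMIs, -0.93 without Ptprc and Cd3e, -1.30 scaled, -0.19 without control replicate 2 and -0.017 without HFD+F+CCl4 replicate 2 (-0.19 to 1.15 without a mouse). The endothelial share differed, NASH minus control, by -5.57 points with 3 gate UMIs, -0.80 with the gate of Cdh5, Tie1 and Clec14a and -17.3 to -8.15 without a mouse; WD+F+CCl4 minus HFD+F+CCl4 was -0.37, 0.21 with that gate, and -3.34 to 2.30 without a mouse (2.30, 1.12 and 1.10 were positive).

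The 2 controls and the 29 to 39 endothelial cells of 3 NASH mice limit every comparison. In those 3 NASH mice Cd34 rests on 16 to 25 UMIs, and in control replicate 2 on 9. At these depths Wnt9b and Vwf rest on 2 and 3 UMIs in control replicate 2, and Ackr1 and Edn1 are as low as Vwf there (2.41 CPM).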
